A study of Rattus norvegicus with 9 samples.

Results

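The genes described here encode the proteins of the cytosolic ribosome. They were chosen by symbol: names of Rpl or Rps with a number and at most the letter a, x, y or l and a further number behind it, the stalk genes Rplp0, Rplp1 and Rplp2, and Rpsa, without the Rps6k kinases. The level used is TPM, which is corrected for transcript length and library depth, summed per name and locus. Transcripts carrying the reference name had to average 1 TPM or more across the 9 libraries. Of 100 genes that matched by name, 94 passed, out of 36858 genes in all. They carry 85 names, with 58 genes of the large and 36 of the small subunit. Just inside the threshold lay a copy of Rps2 (2.07 TPM), Rpl7l1 (2.17 TPM) and Rps10 (2.20 TPM), and just outside it Rps19l1 (0.80 TPM), Rpl22l2 (0.66 TPM) and Rpl3l (0.50 TPM), all counted over transcripts with the reference name alone.

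SD rats aged 8 to 10 weeks gave the blood CD4+ T cells whose total RNA was sequenced. The normal group, the model group (CIA rats) and the combination group (CIA rats given a compound combination for 4 weeks) held 3 libraries each. Groups rest on the labels alone, since the headers of all 9 files carry the word normal and those of the combination libraries use another sample prefix than the labels. The abbreviation is taken to mean collagen-induced arthritis, because the title speaks of rheumatoid arthritis. The compounds are not named in the labels. Nor do the labels tie each library to its own animal, and p-values here measure only how far these libraries differ, which may be technical.

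The cytosolic ribosome consists of a small subunit, which reads the mRNA, and a large subunit, which joins the amino acids. Each ribosome needs 1 copy of nearly every ribosomal protein, and the cell makes them in step. Their mRNAs belong to the terminal oligopyrimidine (TOP) class, which begins with a C followed by a run of pyrimidines, and translation of that class is under the control of mTOR and the RNA-binding protein LARP1. In T cells the translation machinery is enlarged on activation.

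The run of pyrimidines is visible in the gene sequences. RefSeq promoters of build GRCr8, reaching from 250 bases before to 50 bases after the start, were matched to 66 of the 85 names (67 promoters). The match was by name alone, and member promoters are those that carry the name of a member. Some lie on another chromosome than the measured gene, such as Rpl37 (chr2, measured on chr10) and Rpl38 (chr10, measured on chr2). The sequence at those measured genes was not examined. The windows below hold 15 bases on each side of the annotated start, and the longest unbroken run of C and T is in capitals. They are shown for the stalk genes, for Rpl6, which passed the test below, for Rpl35, the highest of the large subunit genes, for the main Rps2 gene, whose copy passed the test, and for Rps27, Rpl31 and Rpl36a, which were highest in 1 combination library.
Rplp0, chr12:46718376-46718405, minus strand: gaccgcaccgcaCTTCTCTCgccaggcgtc
Rplp1, chr8:71290858-71290887, minus strand: gcaggcgcatgtgaTCCTTTCCTCagctgc
Rplp2, chr1:205975906-205975935, plus strand: CCTTTCgccgccggacgccgccgaggtcgc
Rpl6, chr12:41011676-41011705, minus strand: taTTTTTacatcactagatggcgggtgaaa
Rpl35, chr3:43165907-43165936, minus strand: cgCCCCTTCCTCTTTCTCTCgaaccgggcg
Rps2, chr10:14251833-14251862, plus strand: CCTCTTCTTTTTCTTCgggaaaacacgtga
Rps27, chr2:177964592-177964621, minus strand: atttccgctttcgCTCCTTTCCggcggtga
Rpl31, chr9:49143096-49143125, plus strand: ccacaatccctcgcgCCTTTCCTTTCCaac
Rpl36a, chrX:102059434-102059463, plus strand: ccgcctataaaCTTCCgttgctgctctagc
A run of at least 8 pyrimidines lay in this 30-base window on the gene's strand in 41 of the 67 member promoters (61.2%), and in 11.4% of all 33469 promoters. The median longest run was 9 bases in member promoters and 4 bases in all promoters. Rpl35, Rps2 and Rpl31 hold long runs, whereas the window of Rpl6 holds a run of T alone and that of Rpl36a a short run behind the letters TATAAA.

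Other motifs were searched in the whole 300 bases on both strands. The ETS-type letters CCGGAAG were found in 31.3% of member promoters and 8.75% of all promoters. The palindromic box A motif was found in 11.9% of member promoters and 0.373% of all promoters. AAGATGGC, the YY1-type motif, was found in 8.96% against 3.17%, and CTTTCC, which overlaps the pyrimidine run, in 49.3% against 26.4%. The E box CACGTG (7.46% against 6.42%) and TATAAA (13.4% against 14.2%) were about as frequent in member promoters as in all promoters.

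Depth was 7.52 to 10.1 gigabases per library. Markers of CD4+ T cells were present throughout, with Cd3e between 228 and 434 TPM. The 8 that were found together gave 2079 to 2807 TPM in normal, 1560 to 2062 in model and 1949 to 2252 in combination libraries. Cd4 itself was at 202 to 235 TPM in normal, 76.5 to 186 in model and 98.1 to 142 in combination libraries. Limma called 0 of these 8 in any comparison. The 8 markers of CD8 and NK cells together gave 33.0 to 96.9 TPM and the 5 B cell markers at most 26.9 TPM. Summed over 6 found monocyte markers, TPM was 29.0 to 174 in normal, 70.3 to 188 in model and 349 to 704 in combination libraries. Of these 6, limma called 3 higher in combination than in model and 4 higher than in normal. The 5 platelet markers together gave 78.2 to 122 TPM in combination libraries, against 11.4 to 35.4 TPM in the other 6, and the 3 that were tested were all called higher against both groups. The 5 neutrophil markers gave 13.8 to 32.7 TPM in normal, 0.284 to 8.34 TPM in model and 4.07 to 6.85 TPM in combination libraries, and both that were tested were called lower in model than in normal. Summed red cell markers gave 58.9 to 1122 TPM in normal, 2408 to 16213 TPM in model and 261 to 865 TPM in combination libraries. The highest sum was in model replicate 1. Of the 4 that were tested, limma called 3 higher in model than in normal and 2 lower in combination than in model. The 6 naive T cell markers together gave 1721 TPM in combination replicate 3, against 2596 to 3311 TPM in the other 8 libraries. The part of these differences in the results below was not tested. In bulk RNA, fewer cells of a type and less RNA per cell cannot be told apart.

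In the normal libraries the 94 genes together made up 36.0%, 36.2% and 37.2% of TPM (36.5% ± 0.629, SD, n = 3). In the model libraries they made up 35.4%, 34.3% and 30.9% (33.5% ± 2.35, SD, n = 3), all below the normal libraries. In the combination libraries they made up 33.6%, 37.0% and 43.0% (37.8% ± 4.73, SD, n = 3), a range that spans the normal libraries and overlaps the model libraries. Without combination replicate 3 the combination mean was 35.3%.

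Summed large subunit TPM over summed small subunit TPM was 1.05, 1.09 and 1.07 in the normal libraries. It was 0.994, 1.03 and 1.05 in the model libraries and 1.01, 0.969 and 0.928 in the combination libraries. All 3 combination libraries lay below the lowest normal library by more than the normal SD of 0.016. The highest model library was only just below it, and model and combination overlapped. Because this is a sum over chosen genes, no test is given.

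**Figure D1:**
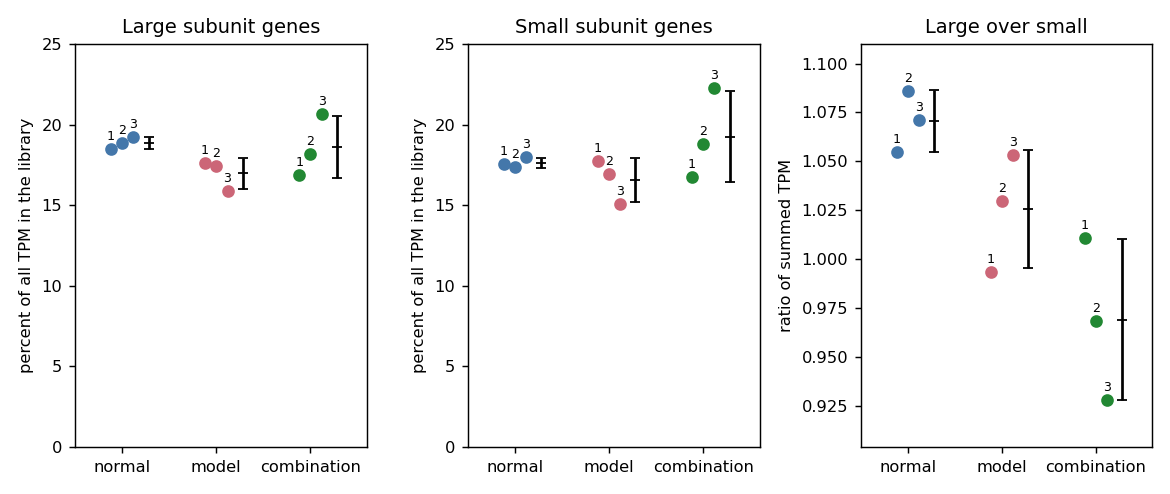
Summed TPM of large subunit genes (left) and small subunit genes (middle) as percent of all TPM, and their ratio (right), by group. Points are libraries with their replicate number, and the bar beside them is the mean ± SD of 3 libraries. Combination replicate 3 is the highest library in both sums, and the ratio is lowest there.

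Levels of single members differed widely. The small subunit genes with the highest mean were Rps27 (13115 TPM), Rps29 (11487 TPM), Rps3 (9716 TPM), Rps15 (9342 TPM) and Rps23 (9189 TPM). The large subunit genes with the highest mean were Rpl35 (9265 TPM), Rplp1 (7650 TPM), Rplp0 (7502 TPM), Rpl36 (7162 TPM) and Rpl41 (6975 TPM). Lowest were the single-exon genes Rpl30l1 (2.92 TPM), Rpl10l (3.39 TPM) and a copy of Rpl39 (3.93 TPM) in the large subunit, and the Rps2 copy (3.31 TPM), Rps4y2 (3.05 TPM) and Rps27l (16.2 TPM) in the small subunit. The 19 members with a single exon, which is the form of processed copies, had a median of 288 TPM, and the 75 with several exons had a median of 3855 TPM. Reads of near-identical copies cannot be assigned with certainty, so the levels of single-exon genes and of the 16 members whose name lies at several loci are uncertain.

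Members varied little between libraries of a group. The median SD of log2(TPM + 1) was 0.085 in normal, 0.145 in model and 0.168 in combination libraries. For the 1075 other genes of at least 100 TPM it was 0.120, 0.261 and 0.218. These genes were not matched in level to the members, whose median was 3497 TPM. Rpl19, a large subunit protein, was the steadiest member over the 9 libraries, between 3007 and 3386 TPM. Its locus also holds AC135443.1, and summed over the whole locus TPM was 9722 to 11776. The part of the division of reads between these names in the level and steadiness of Rpl19 was not tested. Rpl11 lay between 3740 and 4414 TPM and Rps18 between 7124 and 8786 TPM.

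The first comparison asked how arthritis changed these genes. Between model and normal, 76 of 94 members had a lower and 18 a higher mean on the log2(TPM + 1) scale, on which all fold changes are given. The shift was small: the median log2 fold change was -0.13, against -0.01 for all 14176 genes tested, and 91 of 94 members changed by less than 0.5. Limma called 2 members at a Benjamini-Hochberg adjusted p under 0.05, 1 higher and 1 lower, while 4.98% of all genes were called, 2.84% higher and 2.14% lower. By unadjusted p, 17 members were under 0.05 (18.1%), against 27.1% of all genes. Model libraries lay entirely below normal libraries for 32 members and entirely above for 1, where 14.5% and 18.7% of all genes were apart in these directions. When every library was scaled to the median of the members, their median change was 0.030 and that of all genes 0.13. This scaling holds the member median nearly level by construction, so the first value says nothing about the shift.

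Large subunit genes had a median of -0.14 and small subunit genes of -0.10, a difference of -0.04. That is within the spread of such differences between libraries of a group (0.079). Of the 33 members whose groups did not overlap, 25 of the 58 large subunit genes and 7 of the 36 small subunit genes were lower.

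Rplp2 encodes an acidic protein of the large subunit stalk, which recruits elongation factors. It lies at chr1:213991620-213993609 (rn6, plus strand) and has 4 exons. Its levels were 3703, 3797 and 3816 TPM in normal, 2532, 2272 and 2610 TPM in model and 2197, 2153 and 2893 TPM in combination libraries. All model and combination libraries lay below all normal libraries. Rplp2 fell by 0.61 ± 0.13 (SE) in model against normal (limma, adjusted p = 0.034) and by 0.66 ± 0.13 in combination against normal (limma, adjusted p = 0.035).

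The call was lost when the reads of the whole locus were added up. The locus also holds LOC100911575 at chr1:214428526-214430515, whose transcript model has the same length of 348 bases and also has 4 exons. An assembled transcript of 348 bases was counted under LOC100911575. It spans chr1:213991620-214430515, from the first base of Rplp2 to the last base of LOC100911575. Which of these genes its reads came from was not tested. The transcript was listed at 0 TPM in every normal library. It was listed at 0, 1675 and 1565 TPM in the model libraries and at 1865, 183 and 0 TPM in the combination libraries. Summed over the whole locus, TPM was 8362 ± 167 in normal, 7370 ± 284 in model and 6477 ± 781 in combination libraries (SD, n = 3). The locus sum fell by 0.18 in model against normal (limma, adjusted p = 0.30) and by 0.38 in combination against normal (limma, adjusted p = 0.071), and neither passed the test.

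The other stalk genes behaved differently. Rplp0, the protein on which the stalk is built, was at 8563, 8014 and 8138 TPM in normal, 7262, 8554 and 7576 TPM in model and 7048, 6302 and 6056 TPM in combination libraries. Its combination libraries were all lower than its model and normal libraries, with a log2 fold change of -0.35 ± 0.10 against normal (limma, adjusted p = 0.079). Rplp1, the second acidic stalk protein, ranged from 2914 TPM in model replicate 3 to 13154 TPM in combination replicate 2. Its groups overlapped, with an SD of 2824 TPM among the normal libraries alone.

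The gene called higher in model was the copy of Rps2 on chr5:166870011-166872154 (rn6, plus strand), with 2 exons. It was at 0.42, 1.65 and 0.85 TPM in normal, 8.18, 5.96 and 7.15 TPM in model and 3.29, 1.10 and 1.19 TPM in combination libraries. The model libraries were above all others. It rose by 2.07 ± 0.32 in model against normal (limma, adjusted p = 0.018) and fell by 1.57 ± 0.32 in combination against model (limma, adjusted p = 0.036). At so low a level the size depends on the pseudocount: the 2 values were 2.90 and -2.04 with a pseudocount of 0.1, and 1.02 and -0.83 with 5. The first call was lost with no filter on low genes (limma, adjusted p = 0.057). The second was lost with no filter (limma, adjusted p = 0.078) and with a pseudocount of 0.1 (limma, adjusted p = 0.057). Other settings lost them too. No member was called in model against normal without normal replicate 1 or 3. In combination against model none was called with reference transcripts only, a fit of the groups compared alone or the replicate block. The same held there without model replicate 1 or 3 or combination replicate 2 or 3. The main Rps2 gene on chr10:14088319-14089979, which encodes a protein near the mRNA entry of the small subunit, stood at 4994 ± 361 TPM in normal and 4677 ± 663 TPM in model libraries (SD, n = 3). Reads shared by the copy and the main gene cannot be told apart, so the level of the copy is uncertain.

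**Figure D2:**
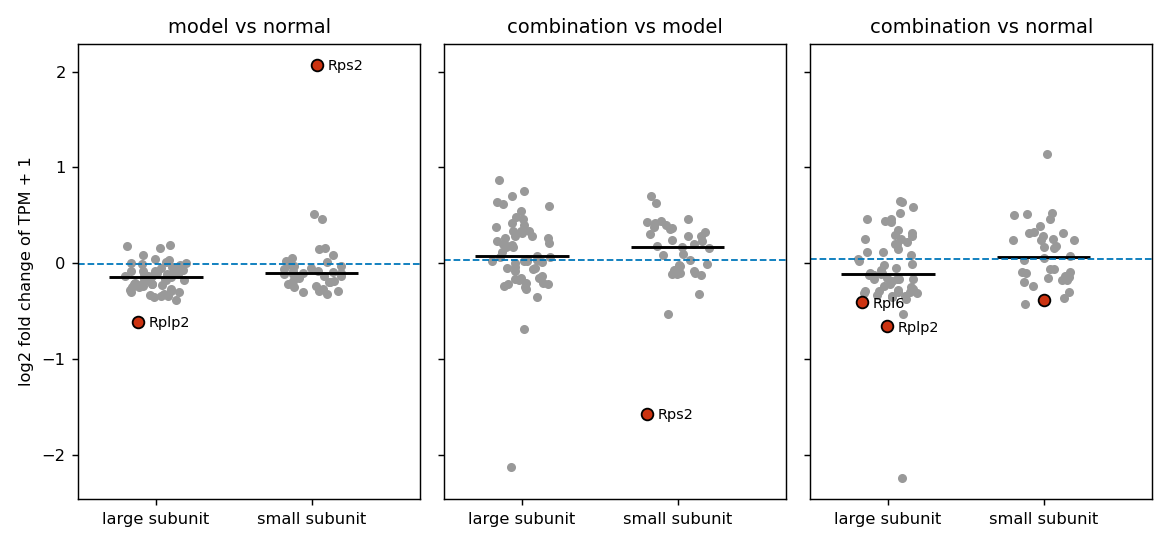
Log2 fold change of TPM + 1 of the 58 large and 36 small subunit genes in each comparison. Each point is a gene, red points passed limma at an adjusted p under 0.05, those described are named, black bars are medians of the members and the dashed line is the median of all genes tested. The points named Rps2 are the copy on chromosome 5, and the lowest grey point in both comparisons of the combination group is Rpl10a.

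The second comparison asked how the compound combination changed the genes in arthritic rats. Of the 94 members, 61 had a higher and 33 a lower mean in combination than in model libraries. The median log2 fold change was 0.14, against 0.03 for all genes. It was 0.07 with median-ratio scaling and 0.24 when libraries were rescaled over other genes. Limma called 1 member, the Rps2 copy, lower and none higher at an adjusted p under 0.05, while 4.49% of all genes were called, 2.41% higher and 2.07% lower; 19 members (20.2%) had an unadjusted p under 0.05, against 26.3% of all genes. Groups did not overlap for 12 members that were higher and 9 that were lower, where 13.9% and 13.0% of all genes were apart in these directions. The median of the small subunit genes was 0.17 and that of the large subunit genes 0.07, a difference of -0.10 that was larger than the spread between libraries (0.079). Without model replicate 3 that difference was -0.012, and without combination replicate 3 the median of all members was 0.050.

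The third comparison set treated arthritic rats against normal rats. Here 51 members had a lower and 43 a higher mean, with a median of -0.06 against 0.04 for all genes. That median was -0.10 with median-ratio scaling and 0.04 when every library was scaled to the members. The second scaling holds it nearly level by construction. Limma called 3 members, all lower, among them Rplp2 and Rpl6, while 4.59% of all genes were called, 2.62% higher and 1.98% lower; 23 members (24.5%) had an unadjusted p under 0.05, against 26.1% of all genes. Combination libraries lay entirely below normal libraries for 28 members and entirely above for 2, where 17.9% and 17.8% of all genes were apart in these directions. Large subunit genes had a median of -0.11 and small subunit genes of 0.07, so that the subunits lay on opposite sides of 0, with a difference of -0.17. The 28 members below were 21 of the 58 large subunit genes and 7 of the 36 small subunit genes.

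Rpl6, a protein of the large subunit surface, lies at chr12:40877613-40881124 (rn6, minus strand). It was at 4198, 4169 and 4118 TPM in normal, 3560, 3913 and 3697 TPM in model and 3417, 3023 and 2983 TPM in combination libraries. The 3 groups did not overlap. Rpl6 fell by 0.41 ± 0.098 in combination against normal (limma, adjusted p = 0.048). Over all alternatives its adjusted p ran from 0.037 to 0.16, and that of Rplp2 in this comparison from 0.020 to 0.12.

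Rpl35, the highest of the large subunit genes, followed the same order without passing the test. It was at 11079, 10577 and 10260 TPM in normal, 8799, 9119 and 8345 TPM in model and 8978, 7999 and 8228 TPM in combination libraries. Both arthritic groups lay below normal, with log2 fold changes of -0.28 (limma, adjusted p = 0.095) and -0.34 (limma, adjusted p = 0.062).

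A further set of members was high in single libraries. Rps27, a small subunit protein with a zinc finger, was at 11063, 11246 and 10587 TPM in normal, 14151, 11624 and 10808 TPM in model and 12081, 15223 and 21256 TPM in combination libraries. Rpl31, which lies near the exit of the peptide tunnel, was at 4725, 4852 and 7350 TPM in normal, 5725, 4585 and 4083 TPM in model and 5797, 7673 and 14717 TPM in combination libraries. Reference transcripts held 14.7% of Rpl31 TPM in combination replicate 3 and 34.1% in normal replicate 3, against 47.0% to 72.6% elsewhere. Assembled transcripts held the rest, and the part of this in the level was not tested. Rpl36a was at 2790, 2886 and 3376 TPM in normal, 3743, 2842 and 2573 TPM in model and 3086, 4507 and 7393 TPM in combination libraries. In all 3 genes combination replicate 3 was the highest of the 9 libraries, and combination replicate 2 was second. None passed the test in any comparison, and the smallest adjusted p among them was 0.12 (limma, Rps27, combination against normal).

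Counted over all members, combination replicate 3 was the highest library for 38 of 94 members and model replicate 3 the lowest for 37. Such counts were not made over all genes, so they do not set the members apart from other genes. In combination replicate 3, 41 members lay above and 36 below the range of the normal libraries (43.6% and 38.3%, against 24.4% and 45.6% of all genes tested). In model replicate 3, 4 members lay above and 73 below that range (4.26% and 77.7%, against 38.9% and 38.1% of all genes). Combination replicate 1 had 6 above and 55 below (6.38% and 58.5%, against 49.4% and 24.3% of all genes).

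**Figure D3:**
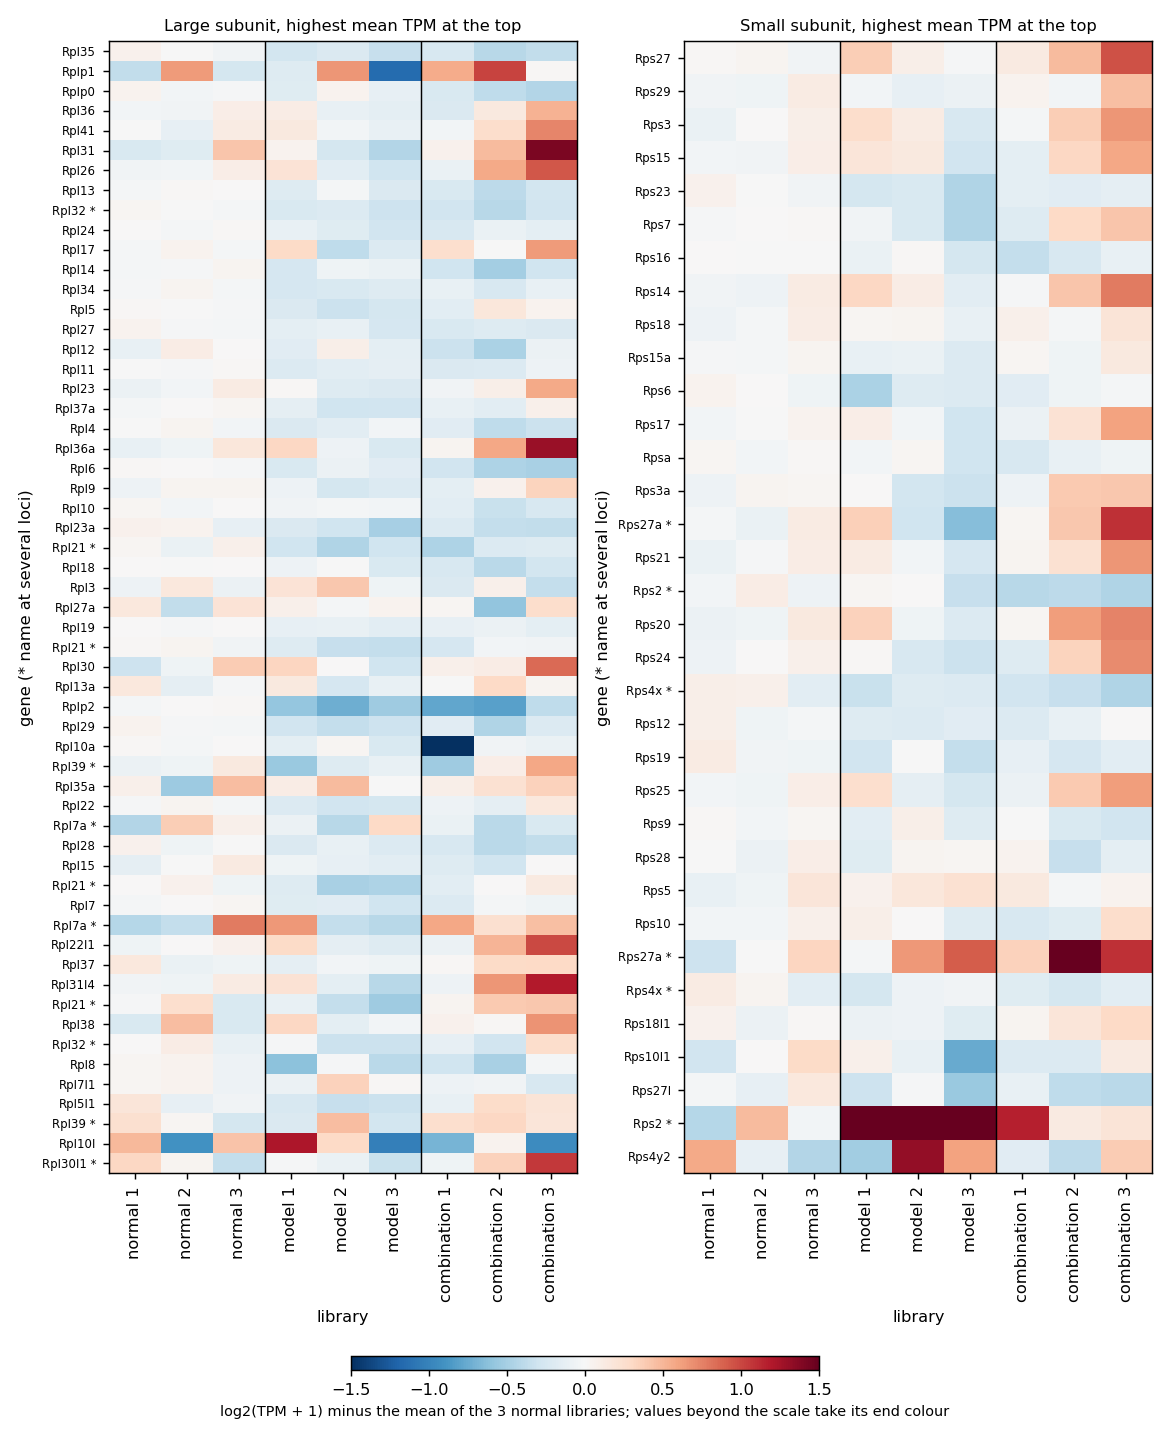
Log2(TPM + 1) of the members reported here minus their mean in the 3 normal libraries, with genes in rows and libraries in columns. Red is higher and blue lower than normal. Rpl31, Rpl36a and Rps27 are red in combination replicate 3, Rplp2 is blue in the model and combination libraries, and Rpl10a is deep blue in combination replicate 1, where it was at 22.9 TPM, and pale elsewhere.

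Among the 88 members of at least 100 TPM, the ratio of combination replicate 3 to the normal mean ran from 0.717 for Rpl6 to 2.66 for Rpl31. The members highest there were Rpl31, Rpl36a, Rpl31l4, both Rps27a genes, Rpl22l1, Rps27 and Rpl26. The ratio was related weakly to exon number (Spearman's rho -0.37) and not to mean level (0.01). With the bases covered by exons of any reference transcript of the gene, rho was -0.30. These 88 genes share libraries and are no independent replicates. Combination replicate 3 was also the library with the least naive T cell marker TPM, and the part of that in the result was not tested.

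Members with roles beyond the ribosome showed small differences. Rpl5 and Rpl11, which bind Mdm2 when ribosome assembly fails, had log2 fold changes of -0.27 and -0.16 in model against normal (limma, adjusted p = 0.15 and 0.27). Rps6, the target of S6 kinases, was at 6573 ± 278 TPM in normal, 5395 ± 579 TPM in model and 6169 ± 312 TPM in combination libraries (SD, n = 3). Model libraries of Rps6 were all below the normal libraries, without passing the test (limma, adjusted p = 0.13). Rpl22, which is needed for the development of T cells, was at 1694 ± 45.3, 1422 ± 44.6 and 1677 ± 183 TPM, and its paralog Rpl22l1 at 477 ± 21.3, 478 ± 90.8 and 691 ± 250 TPM (SD, n = 3). For Rpl22 the model libraries lay below all others, with an adjusted p of 0.18 against normal (limma).

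Some members moved in single libraries together with other transcripts of their locus. Rpl10a, a large subunit protein near the exit site for tRNA, was at 22.9 TPM in combination replicate 1 and between 1930 and 2307 TPM in the other 8 libraries. In that library an assembled transcript of 4410 bases that is counted under the neighbouring gene Fance was listed at 349.8 TPM, against at most 7.65 TPM elsewhere. The log2 fold change of Rpl10a of -2.24 in combination against normal (limma, adjusted p = 0.35) rests on that library.

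For 13 members the share of TPM in reference transcripts, as opposed to transcripts assembled by the authors, spanned over 50 percentage points between libraries. In Rplp1 it ran from 0.0291% to 99.9% and in Rpl3 from 9.09% to 97.1%. In the main Rps2 gene it was 99.4% in normal replicate 2, 96.8% in model replicate 1 and 22.7% in model replicate 2, and at most 0.0486% in the other 6 libraries. Rplp1 was between 9614 and 13154 TPM in the 4 libraries where reference transcripts held nearly all of it, and between 2914 and 6568 TPM in the other 5. Over all members together the share was 80.8% to 85.0% in every library. Sums of both kinds of transcript were therefore used.

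**Figure D4:**
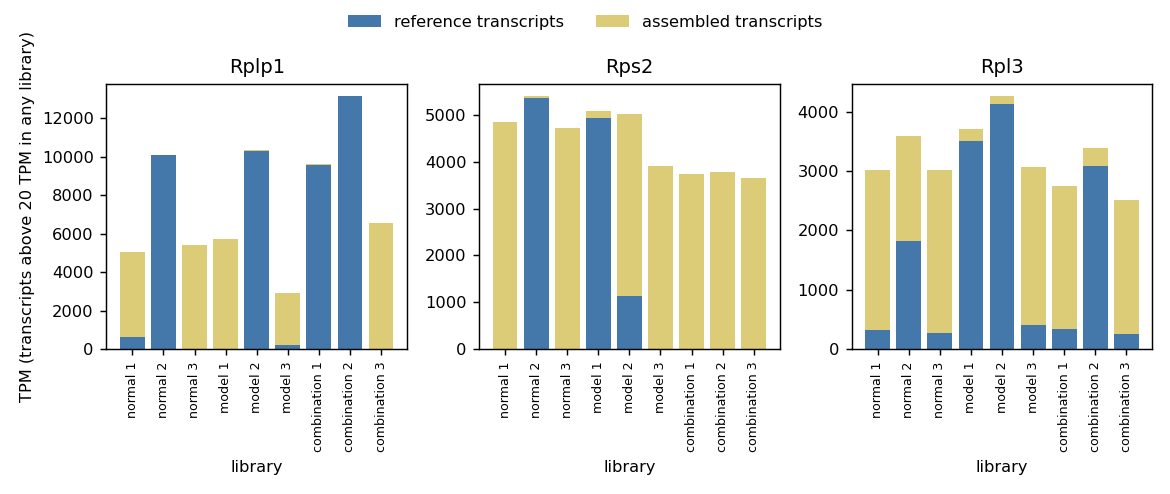
TPM of reference (blue) and assembled (yellow) transcripts of Rplp1, Rps2 (chromosome 10) and Rpl3 in each library, stacked, for transcripts above 20 TPM in at least 1 library. The colours change places between libraries of the same group, and the sum of both varies less than either for Rps2 and Rpl3.

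Genes that work with these proteins were described from lists, here and in the next 2 paragraphs. Of all genes tested, 2.84% were called higher and 2.14% lower in model against normal. In combination the shares were 2.41% and 2.07% against model, and 2.62% and 1.98% against normal. Calls of 1 or 2 genes in a list therefore describe those genes and not the list. Rack1, a scaffold protein of the small subunit outside the name rule, was at 3166 ± 71.8 TPM in normal, 3003 ± 281 in model and 2598 ± 129 in combination libraries (SD, n = 3). Its combination libraries were below all others, without passing the test against normal (limma, adjusted p = 0.13). Fau, which encodes a small subunit protein fused to a ubiquitin-like one, ranged from 137 to 510 TPM. Of 16 elongation factors and other TOP mRNAs, 1 was lower in combination than in model and than in normal: Eef1d, a subunit of the exchange factor of elongation factor 1, at 262 ± 7.40 TPM in normal, 234 ± 14.6 in model and 164 ± 8.95 in combination libraries (SD, n = 3). Eef1d fell by 0.51 against model (limma, adjusted p = 0.045) and by 0.67 against normal (limma, adjusted p = 0.026). Eef1a1 varied from 2061 to 15713 TPM without a call.

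Of 19 initiation factors, 1 was higher in model than in normal and 2 in combination than in normal. Eif3d, a cap-binding subunit of initiation factor 3, was at 199 ± 8.65, 287 ± 18.2 and 283 ± 17.2 TPM in normal, model and combination (SD, n = 3). It rose by 0.52 in model (limma, adjusted p = 0.040) and by 0.50 in combination (limma, adjusted p = 0.046), both against normal. Eif2s2 rose by 0.98 in combination against normal (limma, adjusted p = 0.047).

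Of 29 assembly factors and chaperones, 1 was higher in model than in normal, 2 were lower in combination than in model, and 1 was higher and 1 lower in combination than in normal. Tsr2, the chaperone of Rps26, was at 33.9, 44.2 and 33.3 TPM in normal, 94.9, 92.3 and 109 TPM in model and 67.6, 99.2 and 74.4 TPM in combination libraries, with all arthritic libraries above normal. It rose by 1.40 ± 0.18 in model (limma, adjusted p = 0.013) and by 1.09 ± 0.18 in combination (limma, adjusted p = 0.026) against normal. Bysl, a factor of small subunit assembly, fell by 1.27 in combination against model (limma, adjusted p = 0.031), and Mrto4, a factor of large subunit stalk assembly, fell by 0.80 (limma, adjusted p = 0.048). Of 19 genes that control ribosomal protein synthesis, Myc alone passed. It was at 111, 176 and 99.5 TPM in normal, 47.4, 74.4 and 30.1 TPM in model and 42.5, 44.2 and 43.4 TPM in combination libraries, and fell by 1.38 in model (limma, adjusted p = 0.040) and by 1.50 in combination (limma, adjusted p = 0.037) against normal.

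Small nucleolar RNA (snoRNA) genes, which guide the modification of ribosomal RNA, lie within the introns of many ribosomal protein genes. Within the span of 23 members, on the same strand, 48 snoRNA genes were tested. They include near-equal entries at the 2 Rpl7a loci, such as SNORD36 at 6.83 and 6.76 TPM in normal, which are counted separately. Of the 48, limma called 24 lower in model than in normal and 0 higher (41 and 0 by unadjusted p). Of all genes, 2.14% were called lower and 27.1% had an unadjusted p under 0.05 in either direction. Their median log2 fold change was -0.98, whereas that of their hosts was -0.13, and all 48 snoRNA genes had a lower value than their host. The difference between a snoRNA gene and its host was not tested. In combination against model 7 were higher and 0 lower (26 and 0 by unadjusted p), with a median of 0.67 against 0.02 for the hosts. Of all genes, 2.41% were called higher there and 26.3% had an unadjusted p under 0.05 in either direction. In combination against normal limma called 0 (0 higher and 13 lower by unadjusted p), with a median of -0.36 against -0.14. The 13 of 48 are near the 26.1% of all genes with an unadjusted p under 0.05 in either direction.

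SNORA64 in the main Rps2 gene was at 71.6, 82.3 and 68.4 TPM in normal, 36.9, 16.2 and 28.5 TPM in model and 54.8, 36.8 and 37.2 TPM in combination libraries. All model and combination libraries lay below all normal libraries. It fell by 1.48 in model against normal (limma, adjusted p = 0.026), while its host had a log2 fold change of -0.10. SNORA7 in Rpl32 fell by 1.01 in the same comparison (limma, adjusted p = 0.019). These genes are 64 to 203 bases long, and their reads cannot be told apart from reads of the unspliced host intron.

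**Figure D5:**
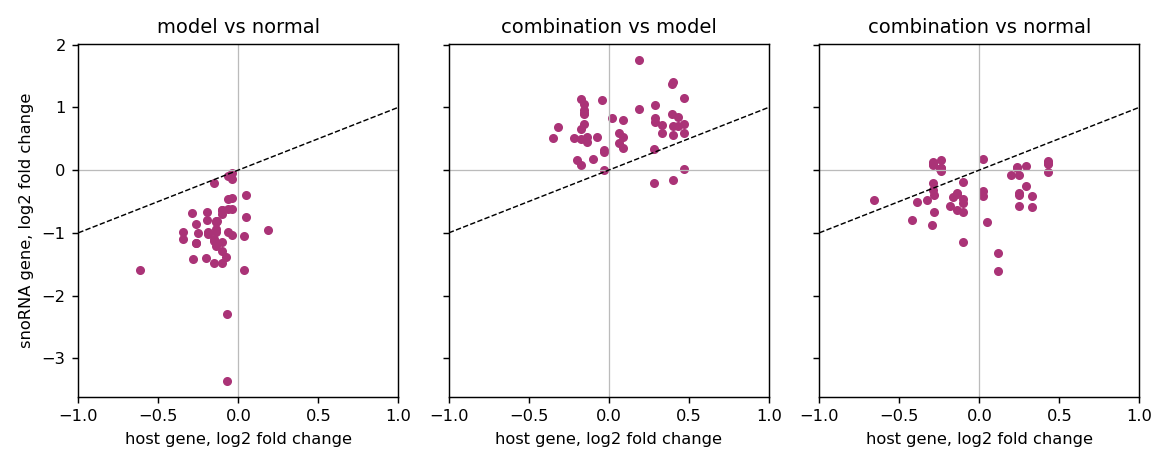
Log2 fold change of TPM + 1 of each of 48 snoRNA genes against that of the ribosomal protein gene that holds it, in each comparison. The dashed line marks equal change. In model against normal all points lie below the line, with hosts near 0.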

How the data were processed

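Total RNA of CD4+ T cells from rat blood was sequenced in 9 libraries, with libraries made by an NEBNext Ultra RNA kit, per the labels' protocols. The submitters' processing notes name bcl2fastq, HISAT2 and the rat genome rn6. The authors ran StringTie 1.3.3b on 80092 transcripts of a merged annotation, per the file headers. The deposited tables give coverage, FPKM and TPM as other text attributes of each transcript, as the authors computed them, with no read counts, so no counting interval was derived. Transcript TPM was summed per gene name and locus. Assembled transcripts without a name went to the only name of their locus or, in loci of several names, to the name with the largest exon overlap (5378 transcripts), which gave 36858 genes. The sum moves with how the estimation divides reads between overlapping transcripts and between near-identical copies.

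The 14176 genes averaging 1 TPM or more entered limma 3.58.1 (R 4.3.3) as log2(TPM + 1). All 9 libraries shared 1 model of group means with an intensity trend, and p-values were adjusted by Benjamini-Hochberg over all genes tested, with a threshold of 0.05. The procedure was tested on simulated data. The members, the other lists and the rule for naming genes were chosen with earlier results of these data known. That rule took all called members, the 5 highest and 3 lowest of each subunit, the 3 largest and 3 smallest changes of each comparison, the stalk genes, paralogs, names at several loci, members with known roles outside the ribosome or in its control, and snoRNA genes within members; the text prints a part of these, and some genes are not reported here. Tables were handled in Python 3.11.15 with pandas 2.3.3.

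Alternatives were other pseudocounts, filters, FPKM, several rescalings, other sums of transcripts, other fits, the replicate block and leaving out libraries in turn. Locus sums were added after the data were seen.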

Additional observations from a re-analysis of the deposited data

How the results depend on the processing

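Counts of called members were small and rarely kept their size. In model against normal, where the count was 2, it was 0 with no filter and 1 with a minimum mean of 5 TPM, median-ratio scaling, scaling to the member median, reference transcripts only, one gene per name, locus sums, no trend and the replicate block. In combination against model, where it was 1, it was 0 with a pseudocount of 0.1, no filter, a minimum mean of 5 TPM, reference transcripts only, one gene per name, a fit of the groups compared alone and the replicate block. In combination against normal, where it was 3, it was 0 with no filter, reference transcripts only, no trend and the replicate block, and 1 with median-ratio scaling and scaling to the member median. With each library left out in turn, the counts were 0 to 3, 0 to 1 and 0 to 1 in the 3 comparisons. In model against normal it was 0 without normal replicate 1 or 3. In combination against model it was 0 without model replicate 1 or 3 or combination replicate 2 or 3. In combination against normal it was 0 without any 1 of the normal replicates or without combination replicate 1 or 2. Where limma called 0 members, 6 to 38 had an unadjusted p under 0.05.

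Scaling to the member median gave medians of 0.030 in model and 0.041 in combination against normal, and moved the median of all genes to 0.13 in each. Scaling to the member median also gave 0.081 in combination against model. That scaling holds the member median nearly level by construction, so these member values say nothing about the shift. Rescaling over other genes gave 0.24 in combination against model and -0.028 in combination against normal, and median-ratio scaling gave 0.074 and -0.10. In combination against normal the median was -0.093 with FPKM and -0.0016 with reference transcripts only. With a library left out, the medians were -0.163 to -0.086, 0.050 to 0.164 and -0.110 to 0.00011 in model against normal, combination against model and combination against normal. Large minus small subunit was 0.022 in combination against model and -0.067 in combination against normal with reference transcripts only, and -0.086 to -0.035, -0.106 to -0.012 and -0.211 to -0.126 in the 3 comparisons with a library left out. The summed share was 38.0% in normal without haemoglobin and mitochondrially encoded genes, and 30.2%, 27.7% and 31.4% in normal, model and combination with reference transcripts only. With a library left out it was 36.1% to 36.7%, 32.6% to 34.9% and 35.3% to 40.0%. One gene per name merged the Rps2 copy with the main gene and gave -0.10 in model against normal. The cause of the other changes was not tested.

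Residual correlations of libraries with equal numbers were -0.14 to 0.056, and those of libraries with unequal numbers -0.14 to 0.15. Residuals around means of 3 libraries cannot decide whether the numbers pair the libraries. No counts were given, so the precision of low members could not be computed.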
